A study of Macaca fascicularis with 3 samples.

Results

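The miRNAs described here are those of the X-linked cluster of miR-532, miR-500 and miR-502, measured by small RNA sequencing in the kidney cortex of 3 naïve cynomolgus monkeys (Macaca fascicularis), between 2 and 3 years of age, with 1 library per animal. The members were found by name, as the listed mature miRNAs whose stem is miR-188, miR-362, miR-500a, miR-500b, miR-501, miR-502, miR-532 or miR-660, on either arm. This rule found 12 of the 432 listed miRNAs, whose monkey names, such as mfa-miR-500a-3p, mfa-miR-500a-5p, mfa-miR-500b-5p and mfa-miR-502-3p, are written below without their species prefix. The stems of miR-362, miR-500a, miR-532 and miR-660 had both arms listed, miR-188, miR-500b and miR-501 the 5p arm, and miR-502 the 3p arm. The opposite arms of those 4 stems were not analysed here. The animals form a single untreated group, so levels can be compared between miRNAs and between animals but not between conditions.

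A miRNA is cut from a hairpin precursor, and either side of the hairpin, the 5p or the 3p arm, can be loaded into an Argonaute protein and guide it to messenger RNAs that pair with the seed near the 5′ end of the miRNA. In human, the hairpins of this cluster lie close together on the X chromosome within an intron of CLCN5, which encodes a chloride/proton exchanger of the endosomes of the proximal tubule. Loss of CLCN5 function causes Dent disease, a disorder of tubular protein reabsorption, and hairpins in one intron can be released from a shared primary transcript. The RefSeq gene table of the monkey assembly T2T-MFA8v1.1 places CLCN5 on the X chromosome between USP27X and AKAP4. That table lists 0 miRNA genes, so the position of the monkey hairpins was not examined, but the authors' normalized table pairs all 12 names with the human miRNA of the same name.

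Over the listed miRNAs, 4305977 counts were obtained from animal 1, 4707892 from animal 2 and 3957188 from animal 3, and levels are given as CPM, counts divided by that total and multiplied by 1000000. A count of 0 would have allowed up to 0.697, 0.637 and 0.758 CPM. All 4 kidney stems looked for, miR-204, miR-215, miR-192 and miR-194, were listed and summed to between 53073 and 61982 CPM. Most of this sum was miR-204-5p, with a mean of 48124 CPM. The mean was 4862 CPM for miR-194-5p, 4292 for miR-192-5p and only 18.9 for miR-215-5p. Vascular miRNAs summed to between 71708 and 85190 CPM, epithelial to between 16281 and 20903, erythroid to between 4374 and 5765, leucocyte to between 1518 and 1727, muscle to between 363 and 562, neuronal to between 107 and 131 and the liver miRNA miR-122a to between 4.04 and 8.82. Only 3 of the 5 epithelial stems looked for were listed. The library of animal 3 stood apart from the others. For the 391 miRNAs averaging 10 or more counts, which are those tested below, the rank correlation of animal 3 with animals 1 and 2 was 0.937 and 0.944 (Spearman's rho across miRNAs), and that of animals 1 and 2 with each other 0.983.

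As a whole, the cluster was a small and fairly even part of the kidney cortex profile. Its 12 names together had 22911, 31493 and 21591 counts in animals 1, 2 and 3. The share of the listed counts was 0.532% for animal 1, with a Wilson 95% interval from 0.525 to 0.539. It was 0.669% for animal 2 (0.662 to 0.676) and 0.546% for animal 3 (0.538 to 0.553), with a mean of 0.582% ± 0.0754 (SD, n = 3). Animal 2 was highest, and its interval did not overlap those of the other animals. Without animal 3 the mean was 0.601%. In this even total, however, single members ranged from a near-constant level to a 29.9-fold span between animals. As the tissue was sequenced in bulk, fewer cells of a type and less RNA per cell cannot be told apart in any of these levels.

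miR-660-5p was the most abundant member. In lung cancer cells it has been described as a regulator of the ubiquitin ligase MDM2. It had 2280, 2890 and 2803 CPM in animals 1, 2 and 3, a mean of 2658 CPM ± 330 (SD, n = 3), and ranked 57 of the 432 listed miRNAs. Animal 1 was lowest, and the animals lay within 1.32-fold (95% counting interval 1.29 to 1.36) after scaling by the trimmed mean of M values (TMM), which sets the libraries to a common scale. This miRNA alone made up 42.9%, 43.2% and 51.4% of the cluster's counts in animals 1, 2 and 3. The cluster's mean share without it was 0.3165% of the listed counts, a value computed after the data had been seen.

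miR-660-3p, from the opposite arm of that hairpin, was the member with the narrowest span. It had 173, 186 and 205 CPM in animals 1, 2 and 3, a mean of 188 CPM ± 16.0 (SD, n = 3), and a span of 1.27-fold (1.15 to 1.41). Animals 1 and 2 differed by a ratio of 1.04, whose counting interval of 0.940 to 1.145 included no difference. Neither arm of miR-660 was low in animal 3.

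miR-362-3p was the second most abundant member. It had 1188, 1015 and 1396 CPM in animals 1, 2 and 3, a mean of 1200 CPM ± 191 (SD, n = 3), and was highest in animal 3 and lowest in animal 2. The opposite arm, miR-362-5p, described as a regulator of the deubiquitinase CYLD in tumour cells, ran differently. It had 32.3, 187 and 37.4 CPM, high in animal 2 alone, and animal 2 exceeded animal 1 by 5.58-fold (4.66 to 6.72). This was the only member on which animals 1 and 2 differed by more than 2-fold, 1 of 12 against 8.95% of the tested miRNAs.

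miR-532-3p had 286, 548 and 550 CPM in animals 1, 2 and 3, so that animal 1 was low and the others were nearly level. Its mean was 461 CPM ± 152 (SD, n = 3), and its span was 2.07-fold (1.93 to 2.22). miR-532-5p, which has been described to act on the transcription factor RUNX3, had 260, 375 and 254 CPM, with animal 2 high and the other animals close together. Its mean was 296 CPM ± 68.4 (SD, n = 3). In animal 3 miR-532-5p was below animal 2, at 0.758 of its level (0.7005 to 0.819) after TMM scaling. Against animal 1 the direction depended on the scaling. Animal 3 was slightly lower in CPM, but higher on the TMM scale of the 3 libraries, at 270 against 257 TMM-scaled CPM. With TMM factors recalculated from animals 1 and 3 alone, its ratio to animal 1 was 1.11 (1.017 to 1.21).

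miR-188-5p, known from bone marrow stromal cells as an age-related switch between bone and fat formation, took an intermediate place. It had 474, 466 and 155 CPM in animals 1, 2 and 3, with animal 3 below both other animals. Its mean was 365 CPM ± 182 (SD, n = 3) and its span 2.84-fold (2.59 to 3.11). Between animals 1 and 2 the ratio was 0.945 (0.889 to 1.004), an interval that included no difference.

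The remaining 5 names, of miR-500a, miR-500b, miR-501 and miR-502, were each lowest in animal 3 and highest in animal 2. miR-502-3p had 987, 1833 and 46 counts in animals 1, 2 and 3, or 229, 389 and 11.6 CPM. Its span was 29.9-fold (22.4 to 41.0), rank 7 among the 391 tested miRNAs, and animals 1 and 2 alone differed by 1.63-fold. The miRNA was thus present in all 3 libraries, and animal 3 lay far outside the range of the other animals.

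Both arms of miR-500a shared this profile. miR-500a-3p had 793, 1557 and 97 counts in animals 1, 2 and 3, or 184, 331 and 24.5 CPM, with a span of 12.1-fold (9.82 to 14.97). miR-500a-5p had 781, 1215 and 58 counts, or 181, 258 and 14.7 CPM, with a span of 15.7-fold (12.1 to 20.9). The arms come from opposite sides of one hairpin, and both were low in animal 3. The cause was not tested.

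miR-500b-5p and miR-501-5p were the lowest members. In animals 1, 2 and 3 there were 72, 105 and 10 counts of miR-500b-5p, or 16.7, 22.3 and 2.53 CPM. For miR-501-5p there were 70, 101 and 10 counts, or 16.3, 21.5 and 2.53 CPM. These names differed by 2, 4 and 0 counts, so that no library separated them. Of the 76245 pairs that the 391 tested names can form, 7 had counts within 5% of each other in every library, 2 of them identical throughout, and among the 7 this was the only pair with a cluster member. Letters after a miRNA number mark closely related mature sequences, and how reads that match several names were counted is not given in the sources used here. The division of reads among the names of miR-500a, miR-500b, miR-501 and miR-502 is therefore uncertain.

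**Figure D1:**
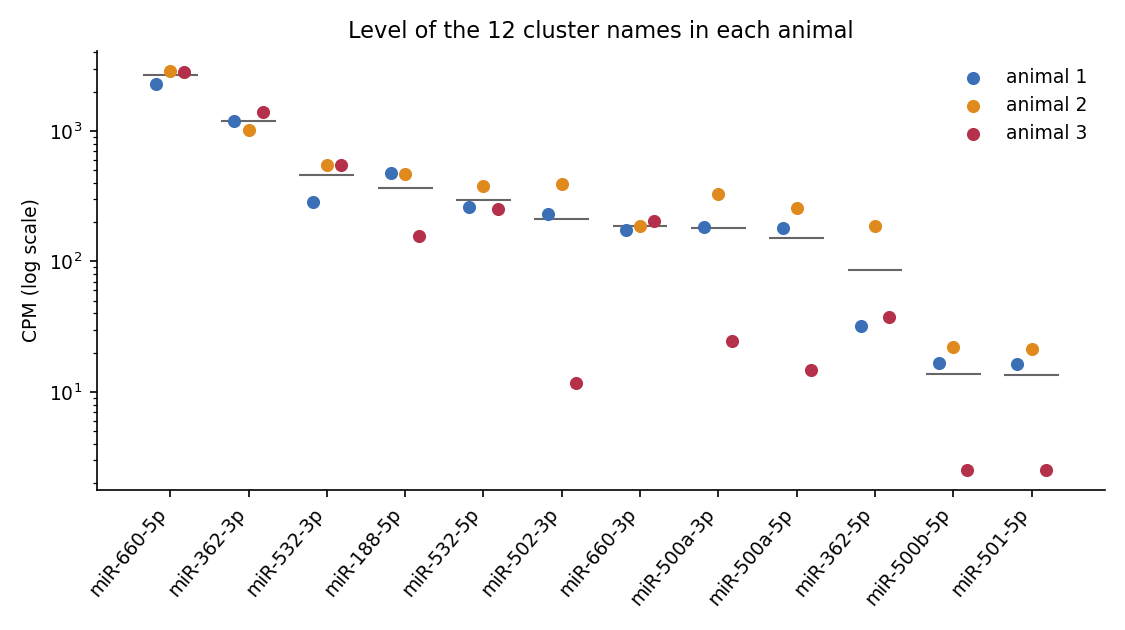
Level of each of the 12 cluster names in CPM on a log axis, with 1 point per animal and a line at the mean of the 3 animals, ordered by mean. The points of miR-660-5p lie between 2280 and 2890 CPM, whereas those of miR-502-3p reach from 11.6 CPM (animal 3) up to 389 CPM (animal 2).

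Summed, the 5 names of miR-500a, miR-500b, miR-501 and miR-502 had 2703, 4811 and 221 counts in animals 1, 2 and 3, or 628, 1022 and 55.8 CPM. On the TMM scale animal 1 exceeded animal 3 by 10.5-fold (95% counting interval 9.11 to 12.05) and animal 2 exceeded it by 16.4-fold (14.3 to 18.8). Animals 1 and 2 differed by 1.56-fold (1.49 to 1.64). The 7 names of miR-188, miR-362, miR-532 and miR-660 had 20208, 26682 and 21370 counts, or 4693, 5668 and 5400 CPM. For these the ratio of animal 1 to animal 3 was 0.808 (0.793 to 0.824) and that of animal 2 to animal 3 was 0.938 (0.9215 to 0.955). miR-660-5p was the largest part of this sum, which does not show how its single members differed. Without miR-188 the ratios were 0.748 (0.7335 to 0.763) for animal 1 to animal 3 and 0.887 (0.870 to 0.903) for animal 2 to animal 3. The separation of the cluster into these sets was made after the values were seen and is a description, with no test.

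The composition within each library shows the same without any scaling between libraries. The names of miR-500a, miR-500b, miR-501 and miR-502 made up 11.8% of the cluster's counts in animal 1, where the Wilson 95% interval ran from 11.4 to 12.2, against 15.3% for animal 2 (14.9 to 15.7) and 1.02% for animal 3 (0.898 to 1.17). The miR-660 hairpin took 46.1%, 46.0% and 55.1%, the miR-362 hairpin 22.9%, 18.0% and 26.3%, and the miR-532 hairpin 10.2%, 13.8% and 14.7%. The share of miR-188 was 8.91%, 6.97% and 2.85%. In direct ratios, miR-660-5p had 9.95 and 7.42 counts for each count of miR-502-3p in animals 1 and 2, but 241 in animal 3 (181 to 329.5).

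**Figure D2:**
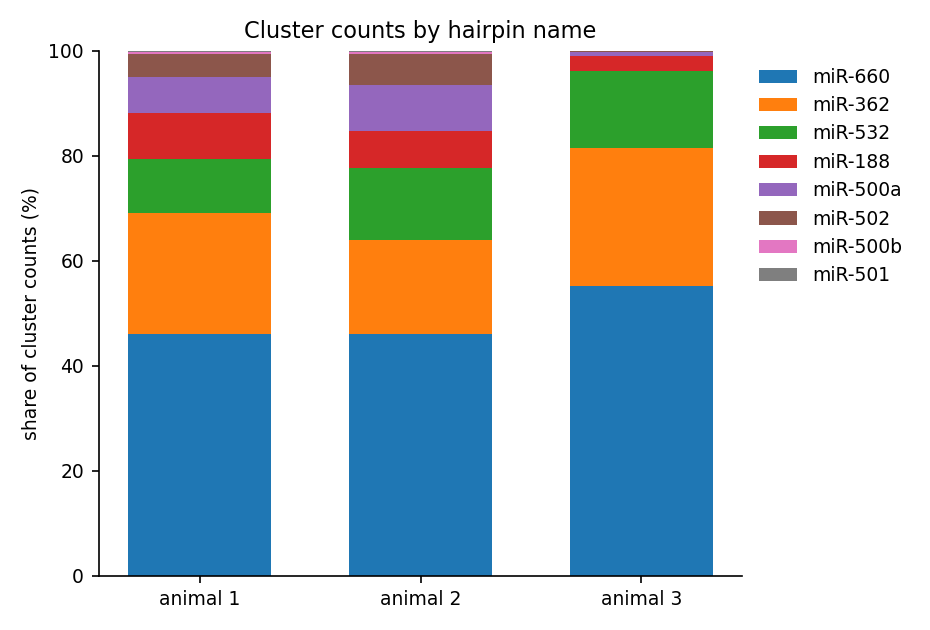
Share of the cluster's counts taken by each hairpin name, in percent, as stacked bars with 1 bar per animal. The bands of miR-500a and miR-502, 8.80% and 5.82% in animal 2, narrow to 0.718% and 0.213% in animal 3, while miR-660 takes the largest share in each animal.

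The departure of each animal was then measured for every miRNA as the log2 TMM-scaled CPM (with 1 added) of that animal minus the mean of the other animals. The 3 departures of a miRNA sum to 0, so a low value in one animal raises the others. For animals 1, 2 and 3 the median departure of the members was 0.38, 1.05 and -1.19, against -0.01, 0.05 and -0.01 over the 391 tested miRNAs. Without animal 3 the medians of the members were -0.40 in animal 1 and 0.40 in animal 2, so that the direction in animal 1 turned. That of animal 3 was -1.78 against animal 2 alone and -0.64 against animal 1 alone. In animal 3 the 5 low names ranged from -4.44 for miR-502-3p, through -3.67 for miR-500a-5p and -3.15 for miR-500a-3p, to -2.42 for miR-500b-5p and -2.37 for miR-501-5p. miR-188-5p followed at -1.46 and miR-362-5p at -0.91. miR-532-5p lay at -0.16, miR-660-5p at 0.26, miR-660-3p at 0.32, miR-362-3p at 0.48 and miR-532-3p at 0.61. These 12 signs were the same under the 4 scalings compared, which were TMM, DESeq2 size factors, library totals and the authors' signal.

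**Figure D3:**
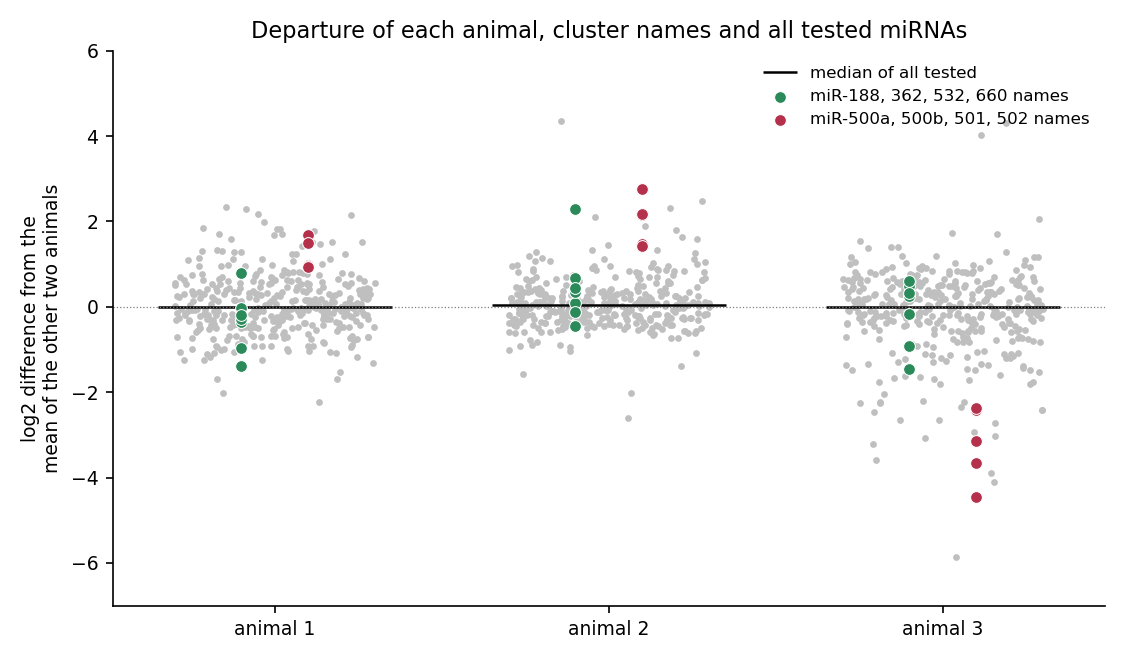
Log2 difference of each animal from the mean of the other animals, with 1 point per miRNA, the 379 other tested miRNAs in grey and a black line at the median of all 391. In animal 3 the 5 red points of miR-500a, miR-500b, miR-501 and miR-502 lie between -4.44 and -2.37, and the 7 green points of the other cluster names between -1.46 and 0.61.

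Counts of members were set beside the same counts over all tested miRNAs. All 12 listed members had a mean count of at least 10 and entered the test, although the authors' own minimum on reads had already acted on the list. By the chi-square test of homogeneity of the counts over the 3 libraries, with Benjamini-Hochberg adjustment, 12 of 12 members differed between libraries, against 80.6% of the tested miRNAs. At this depth the test thus called most miRNAs. Among the members its adjusted p ranged from 2.01e-06 for miR-660-3p to 1.52e-268 for miR-502-3p. Without animal 3 it called 8 of 12, against 59.2% of 400 miRNAs tested in the same way, and miR-188-5p (adjusted p 0.104), miR-660-3p (0.569), miR-500b-5p (0.158) and miR-501-5p (0.186) did not pass. The test compares these 3 libraries, and reads without molecular identifiers are not independent molecules, so that the test and the counting intervals cover counting error only.

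By size, 8 of 12 members had a span above 2-fold, taken as the highest over the lowest animal, against 39.9% of the tested miRNAs, and their median span was 4.21-fold against 1.71-fold. Between animals 1 and 2 alone the median span was 1.32-fold for the members and 1.28-fold for all tested miRNAs. Animal 3 was the lowest animal for 6 of 12 members, against 41.9%, and animal 2 the highest for 7 of 12, against 29.2%. Animal 3 lay more than 4-fold below both other animals for 5 of 12 members, against 6.65%, or 26 of the 391 tested miRNAs. Part of this pattern had been known when the members were chosen, and the low names may share reads, so these counts are a description of the libraries and not a test of the cluster.

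**Figure D4:**
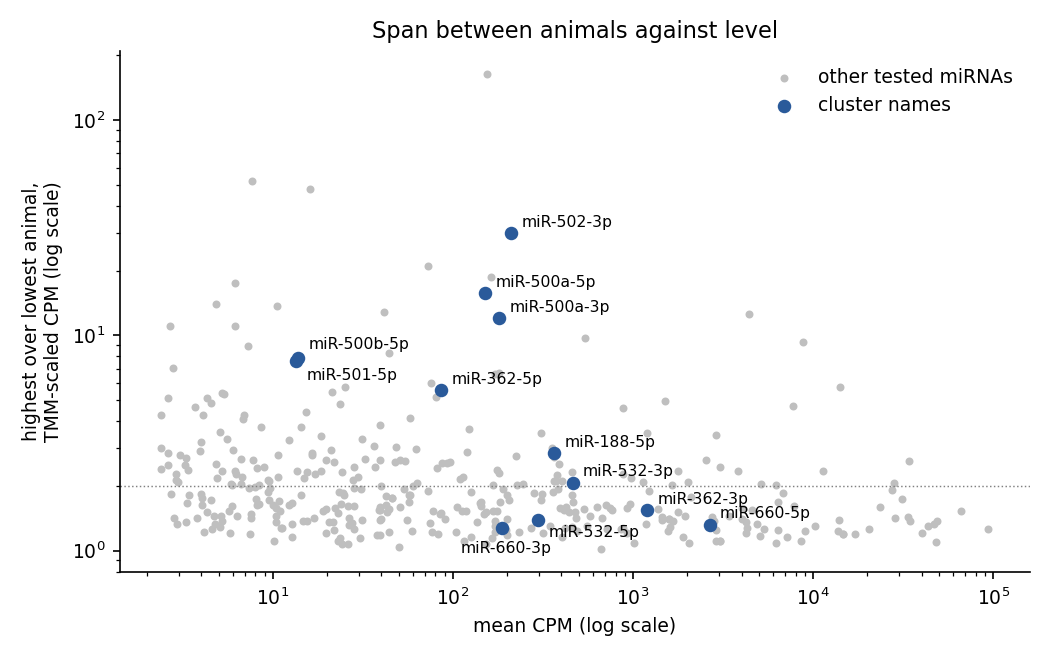
Highest over lowest animal on TMM-scaled CPM against mean CPM, both on log axes, with 1 point per tested miRNA, the cluster names in blue and a dotted line at 2-fold. The 3 tested miRNAs with 0 counts in a library cannot be drawn, and the cluster names run from 1.27-fold for miR-660-3p to 29.9-fold for miR-502-3p.

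The use of hairpin arms is a ratio within a library and needs no scaling. In all 4 hairpins with both arms listed the same arm had the higher count in the 3 animals, whatever the margin. The same held for 92.6% of 122 hairpins of the series, those with both arms listed and a mean of at least 10 counts over both arms together. Among the 4, the arms of miR-500a were nearly equal in animal 1, with a 3p share of 50.4%. miR-660 was a 5p hairpin, with a 3p share of 7.04%, 6.06% and 6.81% in animals 1, 2 and 3 and a mean of 6.64% ± 0.512 (SD, n = 3). miR-362 was a 3p hairpin, with 97.4% in animals 1 and 3 (Wilson 95% limits of 96.9 to 97.8 in both) but 84.4% in animal 2 (83.45 to 85.3).

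The other hairpins were closer to balance. miR-532 had a 3p share of 52.4% in animal 1 (50.4 to 54.4), and for animals 2 and 3 it was 59.4% (57.9 to 60.8) and 68.4% (66.75 to 70.0), and these intervals did not overlap. The 3p share of miR-500a was 50.4% in animal 1 (47.9 to 52.85), and for animals 2 and 3 it was 56.2% (54.3 to 58.0) and 62.6% (54.7 to 69.8), the last from 155 counts, and its interval overlapped that of animal 2. In animal 1 the miR-500a interval included an equal use of the arms. The 3p share differed by more than 10 percentage points between animals in 3 of these 4 hairpins, miR-362, miR-532 and miR-500a, against 26.2% of all 122. Between animals 1 and 2 alone it did so in 1 of 4, miR-362, against 9.84%, with differences of 6.96 points for miR-532 and 5.79 points for miR-500a. Arm use of miR-500a thus moved by 12.2 percentage points between animals. In animal 3 the 3p and 5p arms of that hairpin stood at 0.151 and 0.0915 of their level in animal 1. These ratios used TMM factors recalculated from animals 1 and 3 alone. On the TMM scale of the 3 libraries the arms had 26.1 and 15.6 TMM-scaled CPM in animal 3, against 182 and 179 in animal 1.

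**Figure D5:**
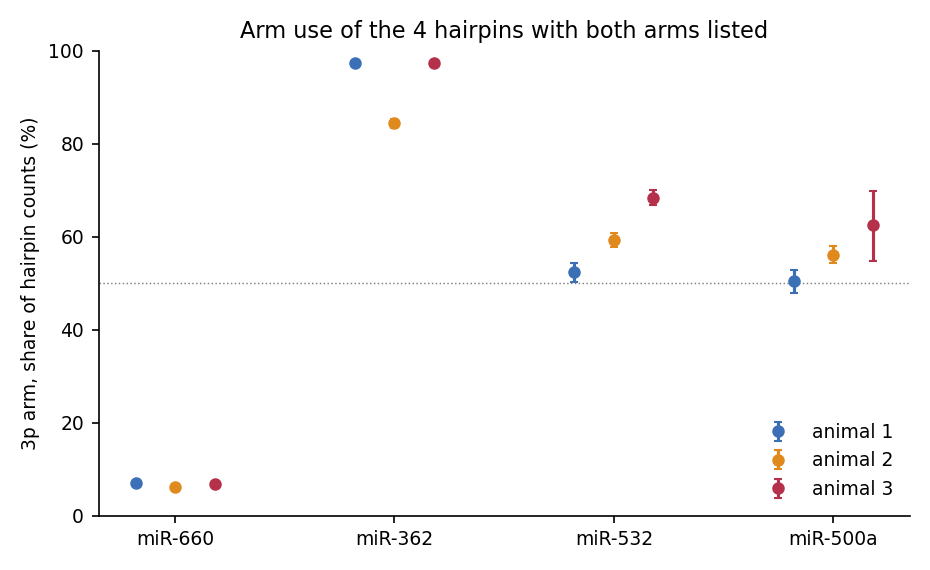
Share of the 3p arm in the counts of the 4 hairpins with both arms listed, in percent, with 1 point per animal, Wilson 95% confidence intervals as bars and a dotted line at equal use. miR-660 stays near 6.64% in the 3 animals, miR-362 falls to 84.4% in animal 2, and miR-532 and miR-500a are highest in animal 3.

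The order of the members was resolved only in part. In the order of mean CPM, 4 of the 11 neighbouring pairs kept their order in 3 of 3 animals. On the log2 scale miR-660-5p lay above miR-362-3p by 1.15 ± 0.31 (SD, n = 3) and miR-362-3p above miR-532-3p by 1.43 ± 0.59. miR-500a-3p exceeded miR-500a-5p by 0.36 ± 0.34, and miR-362-5p exceeded miR-500b-5p by 2.46 ± 1.36. For the miR-500a pair the difference in animal 1 was only 0.02, from 793 against 781 counts, which counting error does not separate. An exact sign-flip permutation test, two-sided, gave a p of 0.25 for each of these 4 pairs, which is as low as the design can reach, and 0.688 after adjustment over the 11 pairs. The other 7 pairs changed places or tied in at least 1 animal, and for example miR-660-3p exceeded miR-502-3p in animal 3 only.

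Members were compared with the rest of the profile by the distance between their departures from the mean over the 3 animals, on the log2 scale. Among the members, miR-500b-5p and miR-501-5p were nearest to each other (0.04), followed by the arms of miR-660 (0.17), and miR-532-3p and miR-502-3p were farthest apart (4.13). The miRNAs outside the cluster nearest to its summed counts were let-7b-3p at a distance of 0.01, miR-382-5p at 0.03, let-7f-3p at 0.05, miR-183-5p at 0.06 and miR-193a-3p at 0.07, against a median of 0.59 over 379 miRNAs. For the summed names of miR-500a, miR-500b, miR-501 and miR-502, a set chosen after its values were seen, the nearest were miR-320a (0.21), miR-107-3p (0.38), miR-204-3p (0.52), miR-103-3p (0.57) and miR-361-5p (0.88). These had far lower counts in animal 3 as well, such as 832, 1320 and 53 for miR-320a and 437, 529 and 19 for miR-204-3p. Distances over 3 libraries are descriptions of these libraries.

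Other miRNAs that lie on the human X chromosome outside CLCN5 gave a point of reference. Of the 22 stems in that list 21 had rows, 31 in all, of which 29 were tested. The test of homogeneity called 25 of the 29 (86.2%), and 9 spanned more than 2-fold (31%), with a median span of 1.51-fold. Animal 3 lay more than 4-fold below both other animals for 2 of the 29 (6.9%), and the median departure in animal 3 was -0.14. The list's most abundant member was miR-424-5p with 11305 CPM ± 4127 (SD, n = 3), whose log2 departure in animal 3 was 0.80. Of the 17 members of the list with at least 100 mean CPM, miR-221-3p and miR-361-5p had the widest spans, 4.98-fold and 9.70-fold. For animals 1, 2 and 3 the counts of miR-221-3p were 9277, 9334 and 1592, and those of miR-361-5p 3687, 3237 and 325. miR-361-3p, from the hairpin of the last, had 2179, 2566 and 2434 counts, so that there only the 5p arm was low in animal 3.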

How the data were processed

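Small RNA was sequenced from 3 kidney cortex samples, grouped as kidney cortex with the animal number taken from the sample titles. The authors deposited raw counts of reads matching M. fascicularis miRNAs with 0 mismatches, per the file headers, for miRNAs passing a minimum of 15 reads, which the smallest sum over libraries, 15, meets. The aligner and the miRNA release are not given in the sources used here. The deposited normalized signal was made with edgeR per the file headers and equalled the count divided by the TMM factor in 100% of values within rounding. Mature sequences were not used here.

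CPM used each library's total of listed counts. TMM factors (edgeR 4.0.16, R 4.3.3) were 1.011, 1.052 and 0.940 for animals 1, 2 and 3. Of the 432 names, 391 with a mean count of at least 10 entered a chi-square test of homogeneity against library totals multiplied by the TMM factors, adjusted by Benjamini-Hochberg at a threshold of 0.05. The test was checked on simulated counts with counting error only, in which 40 miRNAs were changed in 1 library. These counts held no other variation between animals, so the check does not cover such variation. Shares carry Wilson 95% intervals and ratios exact Clopper-Pearson 95% intervals. The floor was 3 counts.

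All members were named, with the 5 miRNAs nearest to the summed cluster. Of the 17 X chromosome miRNAs of at least 100 mean CPM, only those given above were named. Marker lists were kidney, vascular, epithelial, erythroid, leucocyte, muscle, neuron and liver, the last matched as miR-122a and miR-124 as miR-124a after the names were seen. The members and lists were chosen with earlier results of these data known. Alternatives were other scalings (DESeq2 1.42.0 size factors, totals, the authors' signal), count minimums, a pseudocount of 0.5 and leaving out each animal. Where an animal was left out, TMM factors were recalculated on the libraries kept.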

Additional observations from a re-analysis of the deposited data

How the results depend on the processing

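Of 64 recalculated values of the main results, 61 moved by less than 1 SD over the animals or, where they count members, by at most 1.5 times. For the median departures this SD was taken over the medians of the 3 animals. It was so wide that a change of sign in animal 1 did not count as moved. A fall from 12 to 8 members called also stayed within the limit, so this tally is no measure of stability. Of 96 recalculated spans of single members, 27 moved outside the counting interval of the main span. The number of members spanning more than 2-fold was 8 and ranged from 1 to 7 when an animal was left out. The count was 7 without animal 1 (23.5% of all tested miRNAs), 7 without animal 2 (32.1%) and 1 without animal 3 (8.75%), and at a fixed scaling a span over fewer animals cannot be wider. The cluster share of 0.582% was 1.14% of a total without the 10 most abundant miRNAs and 0.3165% without miR-660-5p, an alternative added after seeing the data; both follow from how these values are built. Keeping 1 of miR-500b-5p and miR-501-5p, also added afterwards, left 7 of 11 members spanning more than 2-fold, against 39.7% of all tested miRNAs. An alternative for members with identical counts could not be applied, since no members had them. The median departure of all tested miRNAs in animal 3 moved from -0.01 to -0.14 with library totals and to -0.19 with the authors' signal, and that of the members from -1.19 to -1.32 and -1.37. At a mean count of at least 100, which leaves out miR-500b-5p and miR-501-5p, it was -0.54 for 10 members. At that minimum the members' median departure was -0.11 in animal 1, against 0.38, and 0.55 in animal 2, against 1.05. Leaving out an animal gave -0.40 to 0.64 in animal 1, 0.40 to 1.78 in animal 2 and -1.78 to -0.64 in animal 3. The levels of miR-500b-5p and miR-501-5p in animal 3 rest on 10 counts each. No paired analysis was possible because all samples belong to 1 group.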
